A study of Mus musculus with 6 samples.

Results

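The 10 genes described here encode CXC chemokines, small secreted proteins named for the spacing of their first cysteines: Cxcl1, Cxcl2, Cxcl5, Cxcl9, Cxcl10, Cxcl11, Cxcl12, Cxcl13, Cxcl14 and Cxcl16. They were taken by gene name, as a family chosen with earlier results of these data known, and all 10 were found among the 24061 genes of the count table. The RNA came from fibroblasts that the labels call resident, isolated from the fibrotic lungs of mice with a TGF-alpha transgene and kept in culture. In 3 libraries (numbered 4, 5 and 6) the cells had been transfected with a stealth siRNA against Wt1, a zinc finger transcription factor, and in 3 libraries (numbered 1, 2 and 3) with a stealth control siRNA. Both groups carry the transgene. Not given in the sources used here: its promoter, the age of the animals, how many cultures or animals a group stands for, and the time after transfection. The p-values therefore reflect the variation among these libraries alone, some or all of which may be technical. The comparison asks which transcripts differ after lowering Wt1.

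As background, CXC chemokines guide leukocytes through G protein-coupled receptors and are held on cell surfaces by sulfated glycans. Those that attract neutrophils (Cxcl1, Cxcl2 and Cxcl5) bind Cxcr2 and are classic targets of NF-kB downstream of interleukin 1, interleukin 17 and TNF. Those induced by interferon (Cxcl9, Cxcl10 and Cxcl11) bind Cxcr3 on T cells, while Cxcl12 and its receptors Cxcr4 and Ackr3 serve stromal niches, Cxcl13 recruits B cells through Cxcr5, and Cxcl16 is made as a membrane protein that binds Cxcr6. Cxcl14 is a constitutive chemokine of epithelium and stroma.

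Libraries held 26141921 to 32085698 counts, so that 3 counts, the limit that a count of 0 allows, correspond to 0.0926 to 0.113 CPM (counts per 1e6 counts of the scaled library). Wt1 stood at 11.4, 8.62 and 7.91 CPM in Wt1 siRNA libraries 4 to 6, against 48.8, 55.7 and 51.4 CPM in control libraries 1 to 3. Over all 14190 tested genes, 10.3% were lower and 9.05% higher after Wt1 siRNA at an edgeR adjusted p below 0.05. Fibroblast markers were abundant, with summed levels of 33011 to 40207 CPM after Wt1 siRNA and 21259 to 30486 CPM in controls (5 of 10 tested markers higher, 2 lower). Markers of leukocytes were scarce, at 30.3 to 37.3 CPM after Wt1 siRNA and 31.7 to 36.7 CPM in controls, with Siglecf at 0 counts throughout (0 of 6 tested called by edgeR, DESeq2 or limma-voom, and 0 at an unadjusted p below 0.05). Those of epithelium summed to 42.5 to 48.3 CPM after Wt1 siRNA and 49.9 to 66.3 CPM in controls (1 of 6 lower, Scgb1a1 at 0 counts). Endothelial markers summed to 89.9 to 109 CPM after Wt1 siRNA and 107 to 133 CPM in controls (1 of 8 lower), and mesothelial ones to 138 to 182 CPM after Wt1 siRNA and 184 to 238 CPM in controls (3 of 6 lower, 2 higher). Their part in the chemokine levels was not tested. In bulk RNA, fewer cells of a type and less RNA per cell cannot be told apart.

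After Wt1 siRNA, 4 CXC chemokine genes were lower: Cxcl14, the most abundant one, to a level 3.25-fold below controls, the interferon-inducible Cxcl10 17.5-fold, and the scarce neutrophil chemokines Cxcl5 and Cxcl1, which were nearly absent from these libraries. Cxcl12, Cxcl13 and Cxcl16 were tested and not called, and Cxcl2, Cxcl9 and Cxcl11 had too few reads to pass the filter on low counts. The calls are those of edgeR's quasi-likelihood test at a Benjamini-Hochberg adjusted p below 0.05, under which 10.3% of 14190 tested genes were lower and 9.05% higher (1459 and 1284 genes; 1829 lower and 856 higher with library size scaling). The number of members called higher was 0 in edgeR, DESeq2 and limma-voom, and 0 at an unadjusted p below 0.05. Cxcl1, Cxcl5 and Cxcl10 reached the filter through the control libraries, since 0, 0 and 1 of the Wt1 siRNA libraries passed its level of 0.347 CPM, so the count of 4 among 7 tested members is a description and no support for a family-wide change. The count was 2 when library 3 (control), 4 or 5 (both Wt1 siRNA) was left out, where Cxcl1 and Cxcl5 were not called. In the 4 called members every Wt1 siRNA library lay below every control, as it did in 18.3% of all tested genes.

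**Figure D1:**
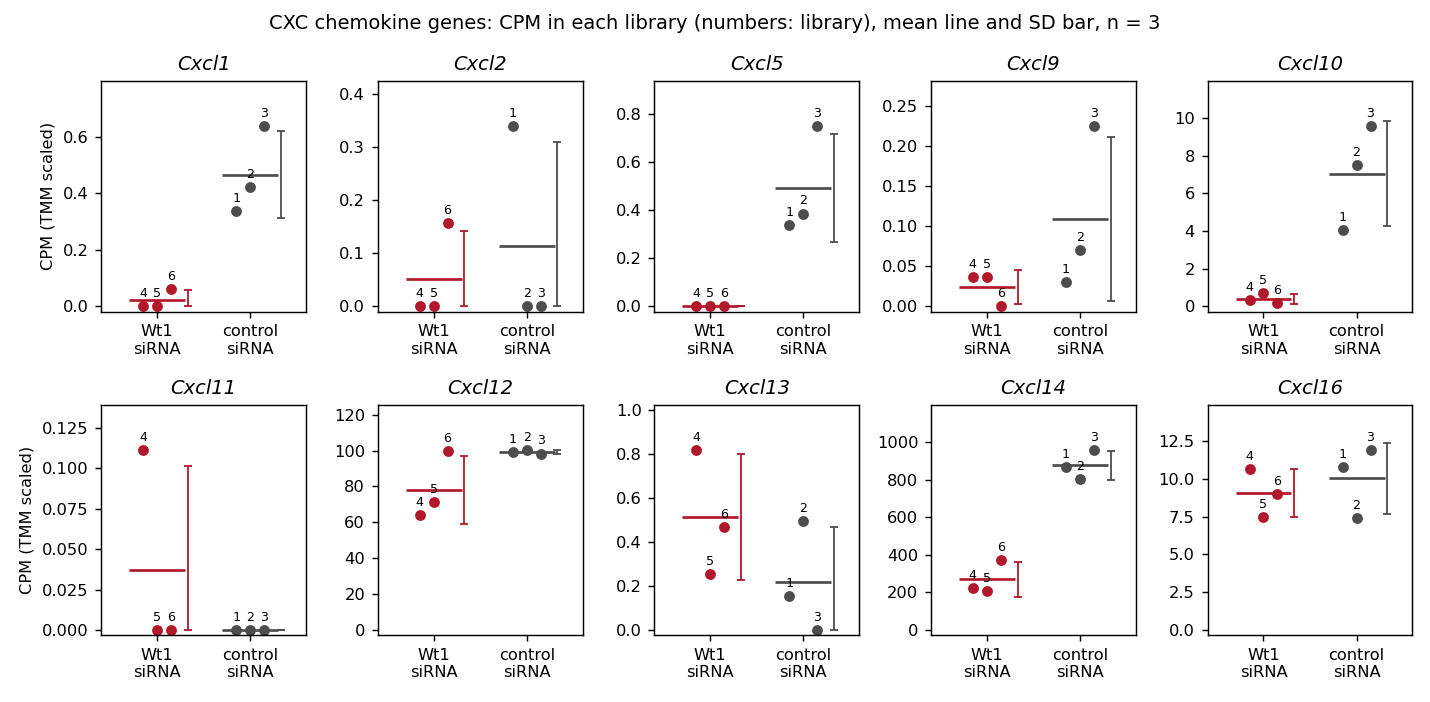
Level of each CXC chemokine gene in CPM (vertical axes, separate for each gene) in the 3 Wt1 siRNA libraries (red, left) and the 3 control libraries (grey, right), with library numbers, mean lines and SD bars that stop at 0. The groups of Cxcl1, Cxcl5, Cxcl10 and Cxcl14 do not overlap, whereas those of Cxcl12 meet at Wt1 siRNA library 6.

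Cxcl14 (gene ID 57266, GRCm38 chromosome 13, 56288643 to 56296811) was measured at 224, 209 and 375 CPM in Wt1 siRNA libraries 4 to 6 and at 868, 802 and 959.9 CPM in control libraries 1 to 3. Every Wt1 siRNA library lay below every control, and library 6 lay above the other Wt1 siRNA libraries. The means were 269.6 ± 91.6 CPM after Wt1 siRNA and 877 ± 79.4 CPM in controls (SD, n = 3 each), a log2 fold change of -1.70 ± 0.19 (SE) with a 95% interval of -2.12 to -1.28 (edgeR, adjusted p = 1.64e-04). The call held with each library left out, with log2 fold changes of -2.01 (without Wt1 siRNA library 6) to -1.55 (without library 5).

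Cxcl12 (gene ID 20315, chromosome 6, 117168535 to 117181368), the ligand of Cxcr4, had 63.9, 71.1 and 99.7 CPM in Wt1 siRNA libraries 4 to 6, and 99.0, 100.4 and 98.3 CPM in controls. Libraries 4 and 5 were low and library 6 was at the level of the controls, so the groups overlapped. The log2 fold change of -0.34 ± 0.15 was not called (95% interval -0.67 to -0.02, edgeR adjusted p = 0.136). Without Wt1 siRNA library 6 it was -0.56, and called (edgeR adjusted p = 0.00977). In the same library Pdgfra, a fibroblast receptor, was also the highest of its group, at 480.1, 456 and 633 CPM in libraries 4 to 6 against 1228, 1215 and 1099 CPM in controls, while Wt1 itself was lowest in library 6.

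Levels of the CXC chemokine genes were set side by side after division by the annotated exon length, in CPM per kb. On that scale Cxcl14 averaged 148 ± 50.1 after Wt1 siRNA and 480 ± 43.5 in controls (CPM per kb, SD, n = 3), far above Cxcl12 at 9.57 ± 2.32 after Wt1 siRNA and 12.1 ± 0.13 in controls. Next came Cxcl16 at 2.99 ± 0.53 after Wt1 siRNA and 3.32 ± 0.78 CPM per kb in controls. Cxcl10 was level with Cxcl16 in controls (3.13 ± 1.23 CPM per kb, within the spread) but stood at 0.179 ± 0.114 CPM per kb after Wt1 siRNA, near Cxcl13 at 0.447 ± 0.248. Cxcl14 made up 91.5% ± 1.17 of the summed length-scaled level of the 10 genes after Wt1 siRNA and 96.1% ± 0.23 in controls, and Cxcl12 6.06% ± 0.73 after Wt1 siRNA and 2.45% ± 0.24 in controls (SD, n = 3). The lengths, unions of annotated exons, were 1827 bases for Cxcl14 and 8176 bases for Cxcl12. The size of the gap between these genes depends on them, and which transcript forms were expressed was not tested.

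The ratio of Cxcl14 to Cxcl12 within a library, which does not depend on how libraries are scaled, was computed after the values above had been seen. It was 15.7, 13.2 and 16.8 in Wt1 siRNA libraries 4 to 6 and 39.2, 35.7 and 43.7 in control libraries 1 to 3 (levels per kb). The groups did not overlap, and library 6 lay with the other Wt1 siRNA libraries in this ratio. The means were 15.2 ± 1.87 after Wt1 siRNA and 39.6 ± 3.98 in controls (SD, n = 3), 2.60-fold lower after Wt1 siRNA, with p = 0.1 in a two-sided exact permutation test, the smallest that 3 against 3 libraries allow. In counts not divided by length the ratio was 3.51, 2.94 and 3.76 in Wt1 siRNA libraries 4 to 6. It was 8.77, 7.99 and 9.76 in control libraries 1 to 3 on that scale.

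**Figure D2:**
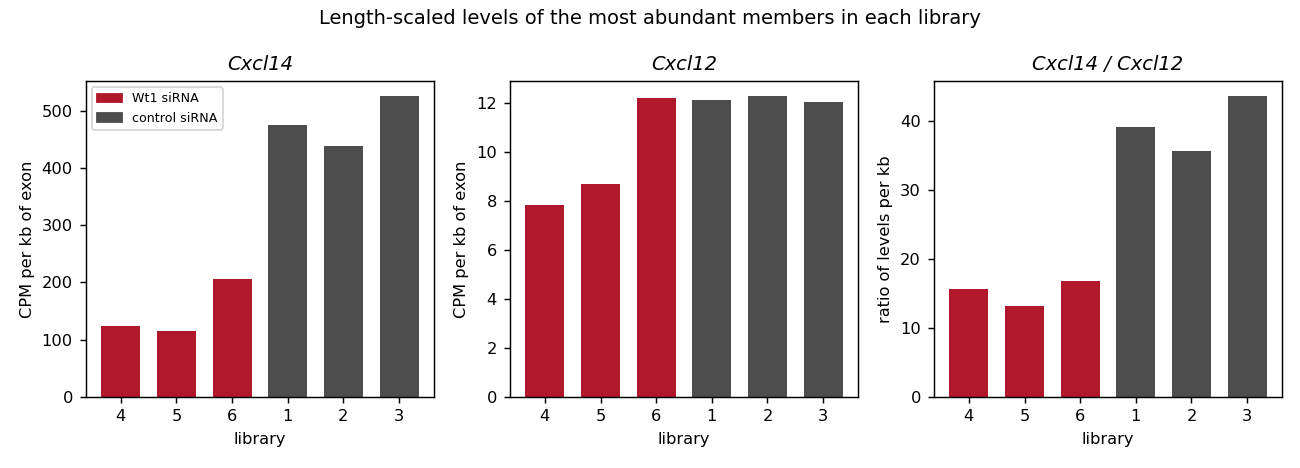
Level of Cxcl14 and of Cxcl12 (CPM per kb of exon) and the ratio of these levels in each library, Wt1 siRNA in red on the left and control siRNA in grey on the right. Wt1 siRNA library 6 is the highest of its group for both genes, while its ratio of 16.8 stays far below the lowest control ratio of 35.7.

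Cxcl10 (gene ID 15945, chromosome 5, 92346638 to 92348889), the interferon-inducible ligand of Cxcr3, had 9, 19 and 6 counts in Wt1 siRNA libraries 4 to 6 and 132, 213 and 255 counts in control libraries 1 to 3. These are 0.335, 0.688 and 0.188 CPM after Wt1 siRNA, against 4.07, 7.49 and 9.58 CPM in controls. All Wt1 siRNA libraries were far below the lowest control, and the controls themselves differed more than those of Cxcl14. The log2 fold change was -4.13 ± 0.49 (95% interval -5.20 to -3.06, edgeR adjusted p = 2.14e-04), and from -4.75 to -3.77 with a library left out. It ranked 5 from the lowest of the 14190 fitted values, with Cxcl5, which had no reads in a group, at 2 and Cxcl1 at 6. Cxcl10, Cxcl5 and Cxcl1 reached the filter through the control libraries, so these ranks are a description only. Cxcl10 lies within the span of Art3, an ADP-ribosyltransferase gene on the other strand, and shares 133 exon bases with it. Art3 had 0.966 CPM after Wt1 siRNA and 2.10 CPM in controls (edgeR adjusted p = 0.172). In CPM not divided by exon length, Art3 was above the mean of Cxcl10 after Wt1 siRNA (0.404 CPM) and below the level of Cxcl10 in controls. How many of the low counts of Cxcl10 lie in the shared bases was not tested. The rule for counting reads in shared bases was not given in the sources used here.

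Cxcl9 and Cxcl11, which lie beside Cxcl10 and share its receptor, were at the edge of detection. Cxcl9 (gene ID 17329) had 1, 1 and 0 counts after Wt1 siRNA and 1, 2 and 6 counts in controls, a pooled level 4.45-fold lower after Wt1 siRNA with an exact 95% counting interval of 0.921 to 42.3, which includes no difference. Cxcl11 (gene ID 56066), which RefSeq lists as a transcribed pseudogene in the reference strain, had 3, 0 and 0 counts after Wt1 siRNA and 0 in every control. Such intervals cover counting error only. Of 6 other tested genes within 100 kb of the Cxcl9, Cxcl10 and Cxcl11 cluster (42.0 kb long), which include Nup54 of the nuclear pore and the lysosomal receptor gene Scarb2, edgeR, DESeq2 and limma-voom called 0 in either direction (1 at an unadjusted p below 0.05 in edgeR, Sdad1). Their log2 fold changes were -1.12 for Art3, -0.01 for Scarb2, 0.01 for Nup54, 0.11 for Naaa, 0.21 for Ppef2 and 0.33 for Sdad1. Over all tested genes edgeR called 10.3% lower and 9.05% higher, so 0 among 6 is a description. Mthfd2l, the tested neighbour of the Cxcl1, Cxcl2 and Cxcl5 cluster, had 10.5 CPM after Wt1 siRNA and 6.35 CPM in controls (log2 fold change 0.73, edgeR adjusted p = 0.0577).

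Of the neutrophil chemokines, Cxcl5 (gene ID 20311, chromosome 5, 90759298 to 90761625) had 0 counts in each Wt1 siRNA library and 11, 11 and 20 counts in control libraries 1 to 3. With 3 counts set for the whole Wt1 siRNA group, its level would be 13.8-fold lower after Wt1 siRNA (edgeR adjusted p = 0.0170). This is an approximate bound, which takes the control counts as exact and leaves out variation among libraries. Without control library 3, Wt1 siRNA library 4 or library 5 the adjusted p was 0.0814, 0.0721 and 0.0561 (edgeR). Cxcl1 (gene ID 14825, chromosome 5, 90891245 to 90893121), the mouse KC gene, had 0, 0 and 2 counts after Wt1 siRNA and 11, 12 and 17 counts in controls. Its pooled level was 19.8-fold lower, with an exact 95% counting interval of 5.13 to 169 (edgeR adjusted p = 0.0366). That call was lost with each of the 6 libraries left out (adjusted p 0.0521 to 0.164) and without the filter (0.138), although the counts of the groups did not overlap. Both genes stood at 0.339 to 0.751 CPM in controls.

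Cxcl2 (gene ID 20310, chromosome 5, 90903899 to 90905938), the MIP-2 gene, was not tested: it had 0, 0 and 5 counts after Wt1 siRNA and 11, 0 and 0 counts in controls, so that 1 library in each group held all its reads. Cxcl1, Cxcl2 and Cxcl3 are close paralogs, between which reads could be split or shared; Cxcl3 had 0 counts in every library. The other CXC ligand genes were as scarce. Cxcl15, a lung chemokine of the mouse, had 0, 2 and 12 counts after Wt1 siRNA and 11, 7 and 5 counts in controls, and the platelet chemokine genes Pf4 and Ppbp had at most 10 counts in a library. Cxcl17 had 0 counts in all.

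Of the neutrophil markers, 2 passed the filter and 1 of them was lower, beside 10.3% lower over all tested genes. S100a8, a calcium-binding protein gene of neutrophils and stressed tissue, had 2, 9 and 34 counts after Wt1 siRNA and 210, 64 and 182 counts in controls (log2 fold change -3.36 ± 0.68, edgeR adjusted p = 0.00515). S100a8 reached the filter through the control libraries, so its call is a description. Csf3r, the G-CSF receptor gene, had 82, 75 and 67 counts after Wt1 siRNA and 58, 75 and 27 counts in controls and was not called (log2 fold change 0.53, edgeR adjusted p = 0.446). Of the neutrophil markers that did not pass the filter, Mpo had 3, 4 and 0 counts after Wt1 siRNA and 8, 13 and 0 counts in controls. Elane and Retnlg had 0 counts in every library, and S100a9 had 3 counts in library 4 and 0 elsewhere. The 6 neutrophil markers in the table summed to 3.16 to 3.35 CPM after Wt1 siRNA and 5.35 to 8.52 CPM in controls. The lower sum came mostly from S100a8, which averaged 0.488 CPM after Wt1 siRNA and 5.19 CPM in controls. Csf3r averaged 2.62 CPM after Wt1 siRNA and 1.81 CPM in controls. Their part in the fall of Cxcl1 and Cxcl5 was not tested.

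Promoter windows, bases 230 to 31 before the annotated start (RefSeq, GRCm38.p6), are shown for Cxcl1 and Cxcl10, which were called lower, and for Cxcl2, the paralog of Cxcl1. The motifs were chosen after the values of these libraries had been seen. A promoter was matched for 7 of the 10 genes; Cxcl5, Cxcl11 and Cxcl16 have no entry. Capitals mark matches to GGG, any 3 bases and TTCC, letters of NF-kB sites, and to TTTC, any 2 bases and TTTC, letters of the interferon-stimulated response element (ISRE), each on either strand.
Cxcl1, plus strand, chr5:90891015-90891214: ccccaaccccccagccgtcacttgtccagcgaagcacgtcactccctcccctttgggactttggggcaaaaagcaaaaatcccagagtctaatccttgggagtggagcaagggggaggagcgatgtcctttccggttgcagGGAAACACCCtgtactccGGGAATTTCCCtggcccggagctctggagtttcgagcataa
Cxcl2, plus strand, chr5:90903669-90903868: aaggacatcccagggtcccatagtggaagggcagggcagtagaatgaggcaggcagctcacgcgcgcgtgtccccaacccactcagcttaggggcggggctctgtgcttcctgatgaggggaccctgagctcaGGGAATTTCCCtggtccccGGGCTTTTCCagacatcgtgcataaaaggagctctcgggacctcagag
Cxcl10, minus strand, chr5:92348920-92349119: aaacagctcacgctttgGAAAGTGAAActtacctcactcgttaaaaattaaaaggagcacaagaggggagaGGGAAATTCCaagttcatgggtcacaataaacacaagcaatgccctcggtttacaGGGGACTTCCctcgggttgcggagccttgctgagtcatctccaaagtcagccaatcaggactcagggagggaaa

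The NF-kB letters were found in Cxcl1 and Cxcl2, where a run that matches on both strands (GGGAATTTCCC) ends 61 bases before the start of Cxcl1 and 87 bases before that of Cxcl2, and at 2 places in Cxcl10. They occur in 3.62% of the 32851 promoter entries over the same 200 bases. The ISRE letters, found in 2.33% of entries, lie 204 bases before the start of Cxcl10. In Cxcl14 a stretch of 29 bases (chr13:56296714-56296742, minus strand) is shown because it holds both the ISRE letters and TTC, any 3 bases and GAA, the letters of the interferon gamma-activated site (GAS, 5.65% of entries), in capitals.
Cxcl14, 191 to 163 bases before the start: TTCTGAGAAgtgtccacagGAAACAGAAA
The start used for Cxcl14 is that of its promoter entry and lies inside the gene span given above, which reaches 56296811. Its whole window (chr13:56296582-56296781, minus strand) lies within that span. Bases before the span were not searched for Cxcl14. The windows of Cxcl9, Cxcl12 and Cxcl13 hold none of these 3 motifs. TATAAA, searched on either strand, is in those of Cxcl9 and Cxcl13 and in 8.92% of entries. It lies 190 bases before the start of Cxcl9 and 41 bases before that of Cxcl13. The windows stop short of the start, so TATAAA nearer to it could not be found for any gene. Whether the other genes have it there was not tested. GCG, any 1 base and GGGCG, letters bound by WT1 and EGR proteins, is in none of the 7 windows and in 3.57% of entries. For Cxcl14 this covers only the window inside its gene span. A match is a description of letters and shows neither binding nor a cause of these levels.

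Cxcl16 (gene ID 66102, chromosome 11, 70454389 to 70459984), the membrane-bound ligand of Cxcr6, had 10.7, 7.46 and 9.01 CPM after Wt1 siRNA and 10.8, 7.39 and 11.9 CPM in controls. The groups overlapped throughout, and the log2 fold change of -0.15 had a 95% interval of -0.64 to 0.34 (edgeR adjusted p = 0.708). It shares 552 exon bases with Zmynd15 on the other strand, so its level is uncertain. Cxcl13 (gene ID 55985, chromosome 5, 95956939 to 95961068), the B cell chemokine, had 22, 7 and 15 counts after Wt1 siRNA and 5, 14 and 0 counts in controls. Its log2 fold change of 1.23 had a 95% interval of -1.06 to 3.52 and was not called (edgeR adjusted p = 0.468). Leaving out Wt1 siRNA library 4 gave 0.74, leaving out control library 3 gave 0.67, and leaving out control library 2 gave 2.60, none of them called.

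Among the receptors, Ackr3, the atypical receptor that binds and clears Cxcl12, was higher after Wt1 siRNA. It had 41.3, 42.9 and 61.4 CPM in Wt1 siRNA libraries 4 to 6 and 20.03, 16.7 and 21.3 CPM in controls, with the groups apart and library 6 again the highest. The log2 fold change was 1.33 ± 0.17, or 2.51-fold (edgeR adjusted p = 3.31e-04), and 1.12 without Wt1 siRNA library 6. Cxcr4, the signalling receptor of Cxcl12, had 2.60, 2.83 and 3.91 CPM after Wt1 siRNA and 3.21, 4.15 and 2.10 CPM in controls (log2 fold change -0.02, 95% interval -0.78 to 0.75).

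Cxcr2, the receptor of the neutrophil chemokines, had 20.2, 15.8 and 29.7 CPM after Wt1 siRNA and 29.9, 16.3 and 23.0 CPM in controls, with a log2 fold change of -0.07 (95% interval -0.61 to 0.46). Its groups overlapped. Cxcr5, the receptor of Cxcl13, had 5, 0 and 5 counts after Wt1 siRNA and 23, 10 and 10 counts in controls (log2 fold change -2.03, 95% interval -4.27 to 0.21, edgeR adjusted p = 0.200). Cxcr5 reached the filter through the control libraries. Of the receptor genes that did not pass the filter, Cxcr3 had 6 counts in control library 1 and 0 elsewhere, Cxcr1 had 6 in control library 3 and 0 elsewhere, Cxcr6 had at most 4 counts in a library, and Ackr1 had 0 in all. Of the 4 receptor genes tested, 1 was higher and 0 were lower in edgeR, with 0 lower also in DESeq2 and limma-voom and at an unadjusted p below 0.05. The shares over all tested genes in edgeR were 9.05% higher and 10.3% lower.

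**Figure D3:**
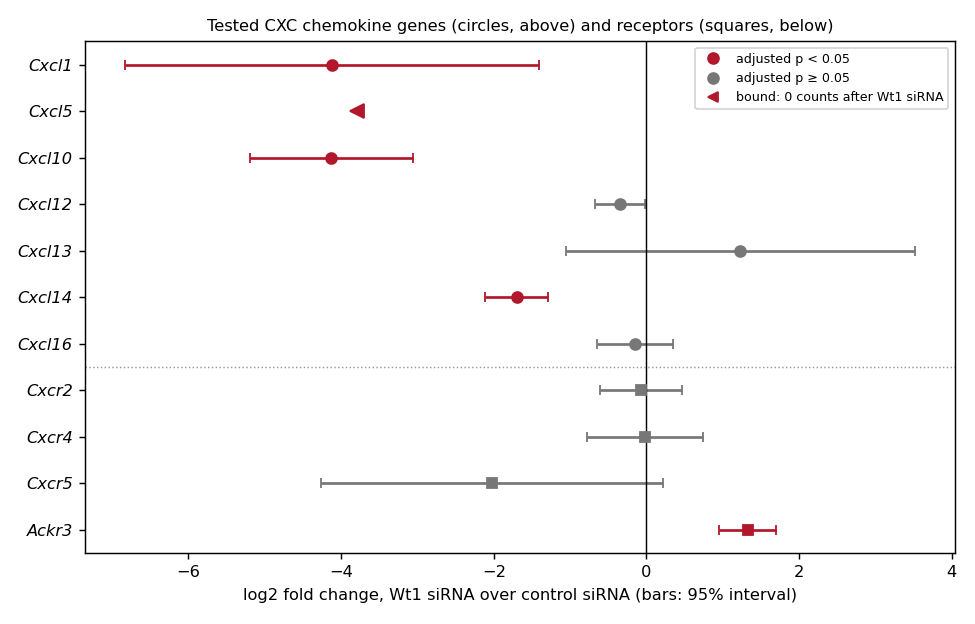
Log2 fold change of Wt1 siRNA over control siRNA (horizontal axis) with its 95% interval for the tested CXC chemokine genes (circles, upper part) and receptors (squares, lower part), red where edgeR's adjusted p was below 0.05. Cxcl5, with 0 counts after Wt1 siRNA, is drawn as an arrowhead at its approximate bound, 13.8-fold lower, which is not the end of a 95% interval. Ackr3 is the one receptor called, at 1.33.

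Among genes that act upstream of the NF-kB-driven chemokines, Il1r1 and Il17ra, each a receptor chain for interleukin 1 or interleukin 17, were lower. Their partner chains on the list were not called, Il1rap by a small margin. Of 29 tested genes of NF-kB and of interleukin 1, TNF and Toll-like receptor signalling, 6 were lower, 2 higher and 21 not called. Over all tested genes 10.3% were lower and 9.05% higher. The median log2 fold change of the list was -0.07, against 0.00348 over all tested genes. Il1r1, the signalling receptor of interleukin 1, had 29.1, 31.0 and 49.0 CPM in Wt1 siRNA libraries 4 to 6 and 127, 131 and 125 CPM in controls. All 3 Wt1 siRNA libraries were far below the controls (log2 fold change -1.81 ± 0.17, edgeR adjusted p = 6.77e-05). Il17ra, the shared chain of interleukin 17 receptors, fell by 1.08 ± 0.15 and Ikbkb, the kinase that releases NF-kB, by 1.20 ± 0.18 on the log2 scale. The partner chain Il1rap had a log2 fold change of -0.37 with its groups apart (edgeR adjusted p = 0.0537, just above the threshold). Il17rc had one of 0.19 (edgeR adjusted p = 0.408). The TNF receptors went opposite ways: Tnfrsf1b rose by 0.70 ± 0.10, and Tnfrsf1a fell by 0.34 ± 0.10 on the log2 scale. Nfkb1, an NF-kB subunit, rose by 0.37 ± 0.11, and the remaining lower members were Bcl3, an NF-kB cofactor (-1.01), and Irak1, a kinase of interleukin 1 receptor signalling (-0.38). With library size scaling, or without any one of 5 libraries (all but control library 3), 1 gene of this list was higher rather than 2. The lower count was 7 with DESeq2, library size scaling, robust shrinkage, a filter of 1 CPM in 3 libraries or no filter on low counts. It was 4 without control library 1 or any one of the Wt1 siRNA libraries.

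Of 17 tested interferon receptors, kinases and transcription factors 8 were lower, 2 higher and 7 not called, with a median of -0.49 (all tested genes: 10.3% lower, 9.05% higher). Stat2, a transcription factor of the type I interferon response, fell by 1.03 ± 0.14, Irf7, an interferon regulatory factor, by 1.77 ± 0.26, and Socs3, a feedback inhibitor of cytokine receptors, by 1.15 ± 0.13 on the log2 scale. Of the type I interferon receptor chains, Ifnar1 was lower (log2 fold change -0.67 ± 0.11) and Ifnar2 was not called (edgeR adjusted p = 0.259). The members that were higher were the chains of the interferon gamma receptor, Ifngr1 (0.51 ± 0.10) and Ifngr2 (0.47 ± 0.10). Without Wt1 siRNA library 4, 1 of them was called.

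Genes that cut chemokines or make the sulfated glycans that hold them went both ways. In this list 6 of 24 tested were lower, 4 higher and 14 not called, with a median of 0.06 (all tested genes: 10.3% lower, 9.05% higher). Mmp8, a collagenase that also cleaves chemokines, had 96.2, 75.7 and 109 CPM after Wt1 siRNA and 441, 405 and 399.5 CPM in controls (log2 fold change -2.15 ± 0.14, edgeR adjusted p = 5.98e-06), with all Wt1 siRNA libraries far below the controls. Adam10, a sheddase of Cxcl16, fell by 0.69 ± 0.11 on the log2 scale. The sulfatases that remove sulfate from heparan sulfate outside the cell went opposite ways: Sulf2 rose by 1.10 ± 0.13, and Sulf1 fell by 0.40 ± 0.10 on the log2 scale, to 309 CPM after Wt1 siRNA, against 407 CPM in controls. Glce, the epimerase that shapes heparan sulfate, rose by 1.01 ± 0.12. The remaining lower members were the metalloproteinases Mmp2 (-0.52) and Mmp14 (-0.39) and the heparan sulfate proteoglycan Sdc4 (-0.54). The remaining higher members were Ndst1, a sulfotransferase of heparan sulfate (0.52 ± 0.10), and Ctsl, cathepsin L (0.40 ± 0.10). The lower count was 3 without Wt1 siRNA library 4.

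**Figure D4:**
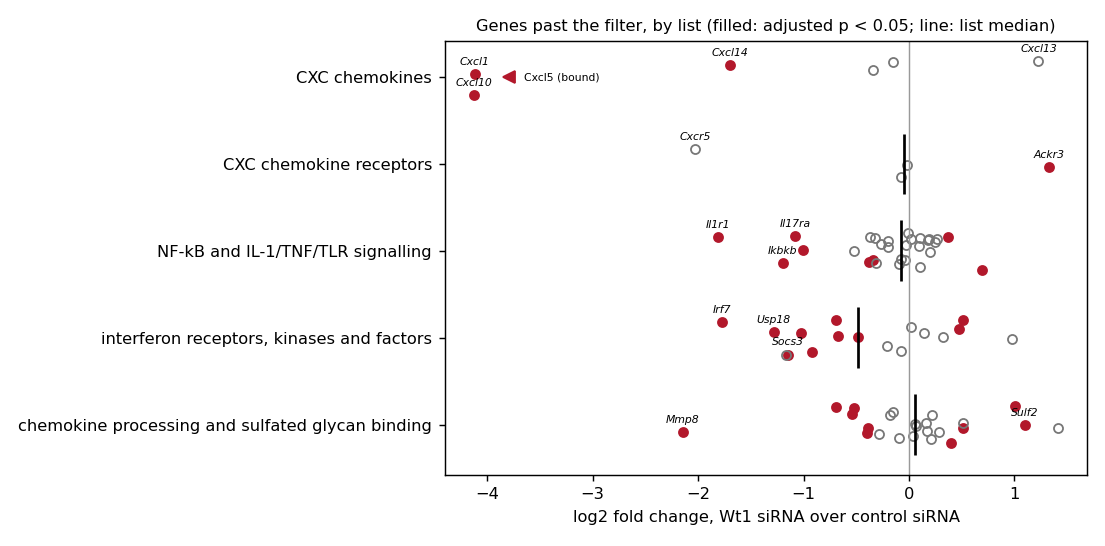
Log2 fold change of Wt1 siRNA over control siRNA (horizontal axis) for each gene past the filter, by list (vertical axis), filled where edgeR's adjusted p was below 0.05, with list medians as lines except for the chemokines. Cxcl1, Cxcl10, Cxcl14 and Cxcl5 (arrowhead at its approximate bound) lie on the left, with Il1r1, Irf7 and Mmp8 the furthest left among called genes of their lists and Ackr3 on the right.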

How the data were processed

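The authors deposited unnormalized counts of reads per gene, as whole numbers, for 6 libraries. Per the submitters' processing notes, bcl2fastq, CASAVA 1.8, TopHat, DESeq and mm10 (GRCm38) were named without role or order; the counting tool, strand setting and filters were not given in the sources used here. Entrez IDs were matched to RefSeq symbols (23976 of 24061). Groups and library numbers came from the sample titles.

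The test across all genes was edgeR 4.0.16 (R 4.3.3): TMM, filterByExpr (14190 genes kept), quasi-likelihood F test on the siRNA group, Benjamini-Hochberg adjustment at 0.05. CPM uses the TMM factors (0.940 to 1.07). The SE of a log2 fold change was taken as its size over the root of F. The script was tested on simulated data. Exon lengths are unions of GENCODE M21 exons. Alternatives were other normalizations, DESeq2 1.42.0, limma-voom 3.58.1, other filters, robust shrinkage and each library left out.

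The members and lists were chosen with earlier results of these data known. The motifs and their window, the ratio of Cxcl14 to Cxcl12, and the search for overlapping and neighbouring genes were added after the values of these libraries had been seen. Named from the lists were up to 4 called genes with the smallest p, and all tested receptors. Nfkb1, Bcl3, Irak1, Il1rap, Il17rc, Tnfrsf1a, Ifnar1, Ifnar2, Ifngr1, Ifngr2, Ndst1, Ctsl, Sulf1, Mmp2, Mmp14, Sdc4, Pdgfra, S100a8, Csf3r and the neighbouring genes were chosen after their values were seen. One gene that this rule names is not reported here.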

Additional observations from a re-analysis of the deposited data

How the results depend on the processing

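Cxcl14 and Cxcl10 kept their direction and their call under all 7 other normalizations, tests and filters and with each library left out. The number of CXC chemokine genes called lower was 2 with a filter of 1 CPM in 3 libraries, which removes Cxcl1, Cxcl5 and Cxcl13 from the test, and 2 to 4 with a library left out. The log2 fold change of Cxcl1 was -4.16 and not called without a filter on low counts, and -6.74 to -3.65 with a library left out. That of Cxcl5 was -7.01 to -6.43 with a library left out, -6.26 with DESeq2 and -4.76 with limma-voom, fitted values that depend on the prior count because 1 group has no reads. That of Cxcl12 was -0.56 to -0.21, called without Wt1 siRNA library 6. Cxcl13, not called in any setting that tested it, was at 0.67 to 2.60 with a library left out and at 1.97 with limma-voom. With a library left out, 1 to 2 genes of NF-kB signalling and 1 to 2 of the interferon list were higher. In the same runs 4 to 6 genes of NF-kB signalling and 3 to 7 genes of chemokine processing and glycan binding were lower. With library size scaling 1 NF-kB gene was higher and 7 were lower. Library size scaling gave 856 higher and 1829 lower genes, against 1284 and 1459 with TMM, and a median log2 fold change of -0.08; without Wt1 siRNA library 4 TMM gave 579 higher and 785 lower, and without library 5 it gave 836 and 1071. Receptors near 0 changed sign: Cxcr4 was at 0.017 with limma-voom and at -0.24 to 0.23 with a library left out, and Cxcr2 at -0.36 to 0.17. Without length scaling Cxcl14 made up 74.9% of the summed level after Wt1 siRNA and 88.1% in controls, and Cxcl12 22.2% after Wt1 siRNA and 10.03% in controls. Apart from what the setting itself removes, the cause of these changes was not tested. No paired analysis was made, because the labels do not say whether a control and a Wt1 siRNA library share a culture or animal. Depth limits Cxcl1, Cxcl2, Cxcl5, Cxcl9, Cxcl11 and Cxcl13, whose counts stayed at 22 or below in each library.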
